A study of Mus musculus with 49 samples.

Results

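The late 2-cell transcriptome was described in 9 single mouse embryos that had been injected with normal mouse IgG, the CONTROL embryos of the TBP loss-of-function experiment, out of 10 such embryos and 49 embryos in the series. The rule kept every mouse IgG embryo with at least 500000 counted reads, and it dropped embryo 7, which had 464300. No groups were contrasted: genes and transposable element (TE) families were ranked by their mean share of the 5′ reads, and by their spread between embryos at a matched mean. Zygotes came from F1 (C57BL/6J × CBA/H) females under 10 weeks old mated with F1 males of 3 to 6 months, so that littermates segregate for the alleles of both strains. Each zygote received mouse IgG and, 4 h later, mRNA for mCherry-Trim21, an antibody receptor that sends antibody-bound proteins to the proteasome, and was collected 48 h after hCG. These embryos are therefore injected and cultured controls and not untouched ones. The 13 rabbit IgG CONTROL embryos of the FOXJ3 experiment, handled in the same way in 2 library batches of 7 and 6, were set beside them as embryos that no ranking used.

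The libraries were made by Smart-seq+5′, which reads the 5′ end of a transcript together with internal fragments, and the 5′ reads alone were counted. Counted reads ran from 1160150 in embryo 1 to 5434808 in embryo 9, with a median of 1551711, and 14612 to 17295 genes had at least 1 read. All levels are reads per 1000000 reads on genes and TE families (RPM), or the same as a percent of reads, and they are shares, so that a class that takes more reads lowers all others. Levels of different genes are not divided by length, since a 5′ read marks a transcript start and not a stretch of it. Embryos 8, 9 and 10 stood apart from the other 6 in the make-up of their reads, as given below, and they include the 2 deepest libraries. The labels give 3 biological replicates for the embryos of the TBP experiment as a whole but do not tie them to single embryos, so that litter and embryo cannot be told apart. Each embryo was lysed whole, so a transcript in fewer blastomeres and less of it per blastomere cannot be told apart.

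The late 2-cell stage is when the mouse genome is broadly switched on. Transcripts left from the oocyte are being cleared, and genes and retrotransposons that are silent before and after are read for a few hours. Among the best known are the Zscan4 genes, which lie in a cluster of near-identical copies, and MERVL, an endogenous retrovirus whose long terminal repeat, MT2_Mm, serves as promoter for many 2-cell genes. The markers given for the stage were found in these embryos. Zfp352, a zinc finger gene, had 33.7 RPM in embryo 5 as the lowest, a median of 73.3 and 133 in embryo 4 as the highest. Eif4e3, a cap-binding protein related to eIF4E, ran from 26.7 to 58.1 RPM with a median of 48.9. Zscan4d ran from 1.78 RPM in embryo 1 to 22.0 in embryo 9, with a median of 10.3. Zscan4c had a median of 6.46 RPM and 36.3 in embryo 2, and no read in embryo 3, where a count of 0 allows up to 2.50 RPM. Both Zscan4 markers thus rest on few reads, and as copies they can share them.

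The promoters of these genes are shown because 5′ reads mark transcript starts, although the read positions themselves were not examined, and because Zscan4c passed the test for variable features given below while Zscan4d, its near-copy, did not. The windows run from 100 bases before to 20 after the RefSeq start on GRCm38.p6, each read along its gene's strand, with TATAAA and CCAAT, on either strand, in capitals. Zscan4c lies on the forward strand (chr7:11005645-11005764), Zscan4d on the reverse strand (chr7:11166129-11166248) and Zfp352 on the forward strand (chr4:90218720-90218839).
Zscan4c: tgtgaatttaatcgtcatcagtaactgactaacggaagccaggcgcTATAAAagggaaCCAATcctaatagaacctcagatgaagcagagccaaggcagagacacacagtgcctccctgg
Zscan4d: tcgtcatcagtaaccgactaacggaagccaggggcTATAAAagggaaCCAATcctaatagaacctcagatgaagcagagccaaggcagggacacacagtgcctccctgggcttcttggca
Zfp352: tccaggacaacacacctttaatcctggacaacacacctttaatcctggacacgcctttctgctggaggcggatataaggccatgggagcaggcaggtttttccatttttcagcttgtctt
Over their full windows of 300 bases, the Zscan4c and Zscan4d promoters had 281 of 289 aligned bases in common (97.2%), with the annotated starts 11 bases apart. TATAAA began at -54 and CCAAT at -42 in Zscan4c, and at -65 and -53 in Zscan4d. The motifs lie at the same places of the aligned sequence, and their positions differ only by the 11 bases between the annotated starts. Zfp352 held neither motif in its 300 bases. TATAAA was found in 13.6% and CCAAT in 37.4% of all 32851 promoters of that length.

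A few classes of RNA took most of the reads in every embryo. Nuclear protein-coding genes took 42.4 ± 5.21% of the reads (SD, n = 9 embryos), from 34.7% in embryo 3 to 51.9% in embryo 8. TE families took 25.6 ± 8.41%, with 15.4% in embryo 9 as the lowest and 38.3% in embryo 2 as the highest. Ribosomal RNA and loci that overlap the rRNA repeat took 23.2 ± 6.09%, and the mitochondrial genome 5.79 ± 1.85%. The 10 most abundant features held 41.9% of the reads and the top 100 held 57.0%. The largest single feature was CT010467.1, an annotated rRNA on chromosome 17, with 15.3 ± 3.67% of the reads. Gm42418 and AY036118, lincRNA models that overlap it on chromosome 17, followed with 3.97 ± 1.26% and 3.78 ± 1.23%, and since the 3 models overlap their separate values are uncertain.

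**Figure D1:**
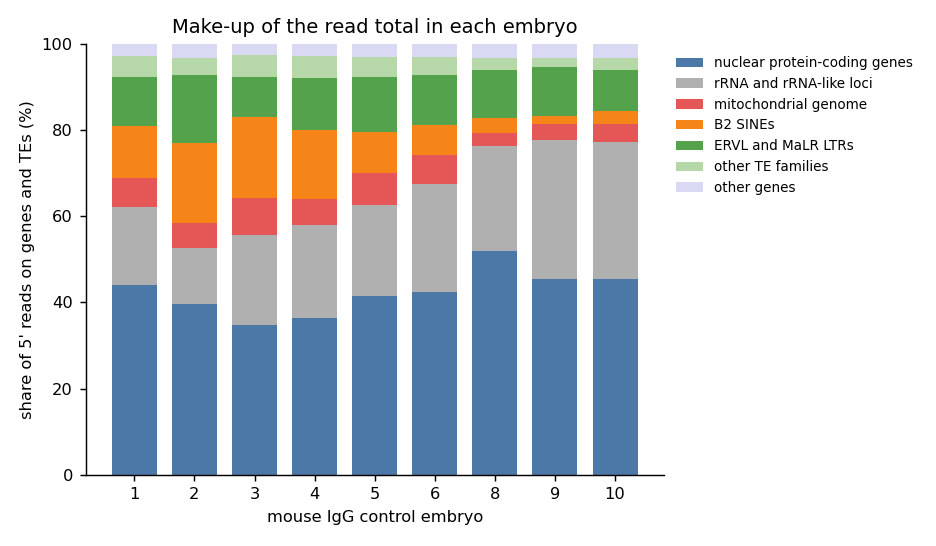
Share of the 5′ reads on genes and TE families (y axis, %) taken by each class in the 9 mouse IgG embryos (x axis). The B2 SINE band is 3.43% or thinner in embryos 8, 9 and 10 and 6.95% or thicker in the other 6, and the mitochondrial band is also thinner in those 3.

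B2 SINEs, short repeats read by RNA polymerase III or carried inside longer transcripts, had a wide range between embryos. They took 10.02 ± 6.64% of the reads (SD, n = 9), with 2.06% to 3.43% in embryos 8, 9 and 10 and 6.95% to 18.6% in embryos 1 to 6, so that the 2 sets did not overlap. The same class spanned 2.11% to 15.3% in the rabbit IgG embryos. The mitochondrial genome split the mouse IgG embryos in the same way, with 3.08% to 4.21% in embryos 8, 9 and 10 and at least 5.81% in the rest. ERVL and MaLR long terminal repeats, the retroviral elements known from oocytes and early embryos, were steadier with 11.7 ± 1.87%, and embryos 8 to 10 lay within the range of the others in this class. These 3 libraries are also the 3 with the most counted reads, and the part of depth in the difference was not tested. The split of the embryos was drawn from these same shares, so the gaps describe the choice.

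Of the nuclear protein-coding genes, Omt2b and Omt2a ranked first. Omt2b and Omt2a, similar oocyte maturation genes that can share reads, took 0.357 ± 0.104% and 0.354 ± 0.104% of the reads (SD, n = 9). Both were lowest in embryo 3 and highest in embryo 2. Cks2, a subunit of cyclin-dependent kinases needed in meiosis, took 0.207 ± 0.0598%. Dppa3 (Stella), a maternal factor that protects the zygotic genome from demethylation, took 0.206 ± 0.0415%. The metallothionein Mt1 had 0.188 ± 0.0282%, and H3f3b, which encodes the replacement histone H3.3, had 0.143 ± 0.0376%. The 47 oocyte transcripts of the list that the table holds took 1.64 ± 0.516% together, from 0.963% in embryo 3 to 2.54% in embryo 2. Cytosolic ribosomal protein genes took 2.52 ± 0.412%, translation initiation factors 0.675 ± 0.0723%, ribosome biogenesis genes 0.725 ± 0.112% and cell cycle regulators 0.760 ± 0.149%. All 38 listed 2-cell genes that the table holds took 0.115 ± 0.0484%, less than a single oocyte gene such as Omt2b. Where a 2-cell transcript starts in a long terminal repeat, its 5′ read can be counted to the TE family. The share on the gene rows can then be too low.

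Mitochondrial transcripts filled 8 of the 15 highest gene ranks. mt-Rnr2, the large rRNA, had 2.17 ± 0.625% of the reads, mt-Cytb 0.794 ± 0.235% and mt-Atp8 0.575 ± 0.223% (SD, n = 9). mt-Nd1, mt-Co1, mt-Rnr1, mt-Nd5 and mt-Nd2, which encode respiratory chain subunits and the small rRNA, ran from 0.343% down to 0.207%. Of these, mt-Atp8 was lowest in embryo 9 and the other 7 were lowest in embryo 8.

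Of the TE families, B2_Mm1a came first with 5.14 ± 3.52% of the reads and B2_Mm1t second with 3.28 ± 2.20% (SD, n = 9). MTA_Mm, a MaLR repeat known for its oocyte transcripts, took 3.14 ± 0.842%. MT2_Mm took 2.10 ± 0.609%, with 1.62% in embryo 1, a median of 1.94% and 3.53% in embryo 2, which stood alone above the others. MERVL-int, the body of the same retrovirus, took 0.681 ± 0.0883%, and its highest value of 0.892% was in embryo 4. MT2C_Mm, an older ERVL repeat, took 1.65 ± 0.163% and had the lowest relative spread of the 10 families named here, a coefficient of variation (CV) of 9.92%. B2_Mm2, ORR1A0, MT2B1 and B1_Mus1 had 1.30%, 0.613%, 0.505% and 0.487%. TE counts are sums over all copies of a family and do not tell which copy, or which host transcript, a read came from.

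The spread between embryos fell with the mean, as counting noise does. The median CV was 50.5% for 3561 features with a mean of 10 to 30 reads and 28.0% for 1724 features with 100 to 300 reads. A curve fitted to 59 ERCC spike-ins, RNAs added in equal amount to every tube, put the technical part at 43.0% and 20.7% at the median of these same bins, with a floor of 15.7%. Features were ranked by excess dispersion, which is the log2 of the squared CV minus the median of the 200 features nearest in mean, so that 1 means a squared CV of 2 times that of its neighbours. In addition each squared CV was tested against the technical value plus a biological CV of 0.5 by a chi-square test. Of 9428 features with a mean of at least 10 reads (8930 genes and 498 TE families), 55 passed at an adjusted p of 0.05, or 0.583%, and 222 had an unadjusted p under 0.05. The 55 were 52 genes (0.582% of genes) and 3 TE families (0.602%). Of the genes, 36 were protein-coding, 7 lincRNAs and 4 processed pseudogenes. Zscan4c was the last inside the threshold at an adjusted p of 0.0458, and Hs3st1 the first outside at 0.0533. The call of Zscan4c was lost when embryo 1, 2, 3, 5 or 8 was left out and under 6 other alternatives, among them ERCC scaling and thinning.

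**Figure D2:**
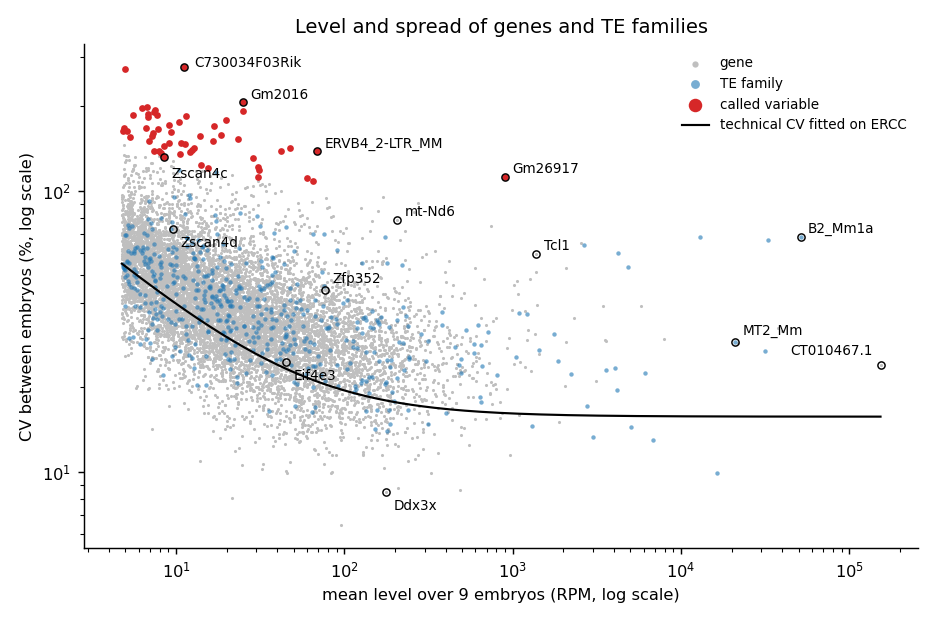
Between-embryo CV (y axis, %, log scale) against mean level over the 9 embryos (x axis, RPM, log scale) for each gene (grey) and TE family (blue), with the 55 features called variable in red and the technical CV fitted on ERCC spike-ins as a line. Gm26917, the called feature of highest mean, lies at 906 RPM with a CV of 112%, and Ddx3x lies at 177 RPM with a CV of 8.50%.

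The variable features were mostly set by 1 embryo each. In 44 of the 55 the highest embryo was over 2 times the next, against 2.90% of all features tested. The test picks features by their spread over 9 embryos, so this contrast describes the choice. Some features reached a mean of 10 reads only through their high embryo, such as Rflnb, with at most 4.34 RPM outside embryo 1. Embryo 1 held the highest value of 20 of the 55, embryo 2 of 11 and embryo 3 of 6. Of all tested features these embryos were highest in 17.1%, 6.70% and 5.41%. Without embryo 1 the count fell from 55 to 34, of which 26 were among the 55, and without embryos 8, 9 and 10 it was 35, of which 31 were among the 55. Counted in the rabbit IgG embryos, within their batches, 46 of the 55 could be measured, and 36 of these (78.3%) lay in the top 10% of excess dispersion there, against 9.49% of all features measured in both sets of embryos. The median excess of the called features was 3.51 in the mouse IgG embryos, which chose them, and 2.09 in the rabbit IgG embryos, where the median of all features was -0.02. Over all 9158 features measured in both, the Spearman correlation of the excess was 0.31, across features that are not independent of each other.

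**Figure D3:**
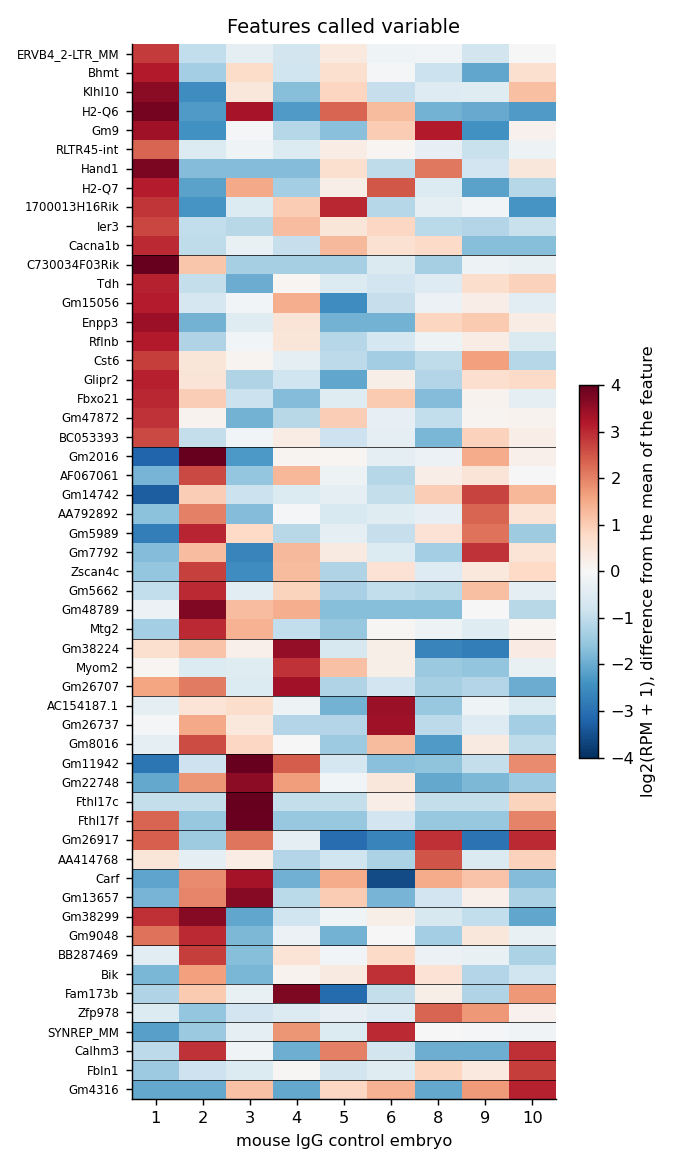
Level of each of the 55 called features (rows, grouped by correlation, with lines between groups) in each of the 9 embryos (columns), as log2(RPM + 1) minus the feature's mean, in red where higher and blue where lower. The 2 largest blocks, of 11 and 10 features, are reddest in embryo 1.

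Genes high in embryo 1 formed the 2 largest sets that varied together. The first, of 11 features with a mean pairwise correlation of 0.67 over the 9 embryos, held the ERVK repeats ERVB4_2-LTR_MM and RLTR45-int, Bhmt, Klhl10, H2-Q6, H2-Q7, Gm9, Hand1, 1700013H16Rik, Ier3 and Cacna1b. The second, of 10 features with a mean correlation of 0.70, held C730034F03Rik, Tdh, Gm15056, Enpp3, Rflnb, Cst6, Glipr2, Fbxo21, Gm47872 and BC053393. In the rabbit IgG embryos the mean correlation within these sets was 0.14 and 0.10, against 0.076 for pairs of tested features in general, and 0.066 in the mouse IgG embryos. The sets were chosen by correlation in these same 9 embryos, so that their mean correlation here describes the choice. Many members also reached a mean of 10 reads only through embryo 1. In the second set these were C730034F03Rik, Gm15056, Enpp3, Rflnb, Glipr2, Fbxo21, Gm47872 and BC053393, and in the first Hand1 and Cacna1b. That such members are high in embryo 1 describes the filter.

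Bhmt, which methylates homocysteine with betaine as donor, had 94.4 RPM in embryo 1, a median of 9.24 and a range of 1.52 to 16.7 in the other 8. Tdh, threonine dehydrogenase, a mitochondrial enzyme known from mouse embryonic stem cells, had 116 RPM in embryo 1 against 25.2 in the next. C730034F03Rik had 92.6 RPM in embryo 1 and at most 4.38 elsewhere, with no read in 4 embryos. These 3 were chosen for their high excess, so that a single high embryo describes the choice. Without embryo 1, Bhmt and Tdh were no longer called, with an excess of 1.06 and 1.25 instead of 4.10 and 4.04. Each of the 2 was also lost under 1 other alternative. C730034F03Rik reached a mean of 10 reads only through embryo 1. ERVB4_2-LTR_MM had 321 RPM in embryo 1, a median of 40.3 and 22.5 as the lowest value, and RLTR45-int had 251 RPM, 42.7 and 26.0. Without embryo 1 their excess dispersion fell from 4.67 to 0.11 and from 3.82 to -0.36, and RLTR45-int was also no longer called without embryo 2, 4 or 9 or under 9 other alternatives, among them ERCC, TMM and DESeq2 scaling. Hand1, a bHLH factor of trophoblast and heart, had 44.5 RPM in embryo 1 and 13.3 in embryo 8, with no read in 3 embryos. It also had an excess of 3.94 in the rabbit IgG embryos. H2-Q6 and H2-Q7, class I genes of the Qa region of the major histocompatibility complex that can share reads, did not follow 1 embryo: H2-Q6 had 67.7, 46.8 and 23.2 RPM in embryos 1, 3 and 5 and no read in embryos 2, 4 and 10. Embryo 1 also had the highest share of cumulus and granulosa cell markers, 0.00748% of the reads against 0.00194% to 0.003755% in the others, and of blood cell markers, 0.0041% against 0.000334% to 0.00188%. Of these 17 and 8 markers only Amhr2 (48.1 RPM in embryo 1, median 19.4) and Hba-a1 (32.1 RPM, median 6.89) reached a mean of 10 reads, and the cumulus markers Has2 and Ptx3 had no read in any embryo. The part of these markers, and of the shallowest library and the highest level of the injected construct (1540 RPM), which embryo 1 also had, was not tested.

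Other embryos had their own variable genes. Embryo 2 had the highest levels of a group of near-identical Eif1a-like genes on chromosome 12. Gm2016 had 162 RPM there, a median of 8.43 and no read in embryo 1, and Gm5662 had 220 RPM, a median of 20.04 and a lowest value of 10.5. BB287469, another of these genes, had 57.6 RPM in embryo 2 and 13.9 in the next. Without embryo 2, Gm2016 and Gm5662 were no longer called, with an excess of 1.85 and 2.41 instead of 5.12 and 4.42. Gm5662 was also lost under 1 other alternative. Embryo 4 had the highest levels of Fam173b, a methyltransferase of mitochondrial ATP synthase, with 111 RPM against a median of 5.84, and of Myom2, a protein of the muscle M-band, with 192 RPM against a median of 20.1. Without embryo 4 neither was called, with an excess of 2.37 and 1.69 instead of 4.63 and 4.11. Myom2 was also lost under 1 other alternative. The lincRNA model Gm26917, next to the rRNA locus of chromosome 17, was the most abundant called feature and fell into 2 levels. It had 1343 to 2424 RPM in embryos 1, 3, 8 and 10 and 35.8 to 238 RPM in the other 5. Its call was lost without embryo 2, 5, 6 or 9 and with a minimum biological squared CV of 0.5. SYNREP_MM, a satellite repeat, had 34.99 RPM in embryo 6 and a median of 3.09, and its excess of 3.19 was 5.202 in the rabbit IgG embryos. RLTR13B1 and RLTRETN_Mm, the other TE families of high excess with 3.24 and 2.96, did not pass the test.

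Embryo 3 stood apart in sex-linked genes. There were 6 X-linked genes among the 52 called, or 11.5% of them, while 2.80% of the genes tested were X-linked. Only Fthl17c and Fthl17f of the 6 were highest in embryo 3. Both reached a mean of 10 reads only through that embryo, so their part in the 11.5% describes the filter. Gm9, 1700013H16Rik, AA414768 and Gm14742 were highest in embryos 1, 5, 8 and 9. Fthl17c and Fthl17f belong to an X-linked ferritin-like family that is known to be read from the paternal X, and so mainly in XX embryos. Fthl17c had 40.9 RPM in embryo 3, 2.57 in embryo 10, 1.32 in embryo 6 and no read in the other 6. All 6 Fthl17 genes of the table together had 140 RPM in embryo 3 and 0 to 13.4 RPM in the rest. Embryo 3 had no read on any of 9 Y-linked genes, which together had 45.5 to 84.4 RPM in the other 8 embryos. Xist, the RNA that coats an inactivating X, had 35.1 RPM in embryo 3 and at most 0.724 in the others. The rabbit IgG embryos, looked at after these values were seen, had 6 embryos with under 10 Y-linked reads and 7 with more. The Fthl17 family had 24.1 to 193 RPM (median 151) in the 6. Of the 7, 5 had at most 0.925 RPM, and the other 2 had 110 and 101 RPM beside 105 and 58.4 RPM of Y-linked reads. Xist followed this split in part: it had a median of 11.7 RPM (0 to 29.9) in the 6 and of 0 in the 7, with 3.86 and 11.9 RPM in those 2 of the 7. With 1 such embryo among the 9, the share of XX and XY embryos and any other property of embryo 3 cannot be told apart. Embryo 3 was also highest for Carf, a calcium-responsive transcription factor (119 RPM, median 25.3), and Gm13657 (44.2 RPM, median 1.16), both autosomal.

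Among the lists with at least 10 tested members, genes of the 2-cell programme had the highest share of widely spread members. The lists were chosen with earlier results of these data known, so this ranking can in part describe the choice. Of the 40 genes listed, 38 were in the table and 25 reached a mean of 10 reads. Of these 25, 20 were in the top 10% of excess dispersion, which holds 9.97% of the genes tested, and the median excess was 1.96. Gm5662, BB287469 and Zscan4c passed the test (3 of 25, against 0.583%). All 4 Zscan4 genes tested were in the top 10%, with 2.88 for Zscan4c, 2.14 for Zscan4f, 1.31 for Zscan4a and 1.28 for Zscan4d. In the rabbit IgG embryos Zscan4c and Zscan4d had 2.59 and 2.73. Tcstv3 ran from 39.2 RPM in embryo 1 through a median of 85.2 to 293 in embryo 2 (excess 2.89), and Usp17lb, a deubiquitinase of a tandem family, from 31.2 in embryo 1 to 265 in embryo 9 (2.83). In embryo 3, Gm8994, Pramef25, Zscan4a and Tmem92 had 2.50, 0, 0 and 14.2 RPM, while Tcstv3 was at its median and Zfp352 above its own. Ubtfl1, Eif4e3 and Zfp410 went the other way, with an excess of -0.52, -0.76 and -0.78. Without embryo 2, 13 of the list were in the top 10%, and without embryos 8, 9 and 10 it was 18 of 23. Of 24 members measured in the rabbit IgG embryos, 10 were in the top 10%, with a median excess of 0.95. Many of these genes have near-identical copies, and how reads that fit several of them were shared out was not stated.

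**Figure D4:**
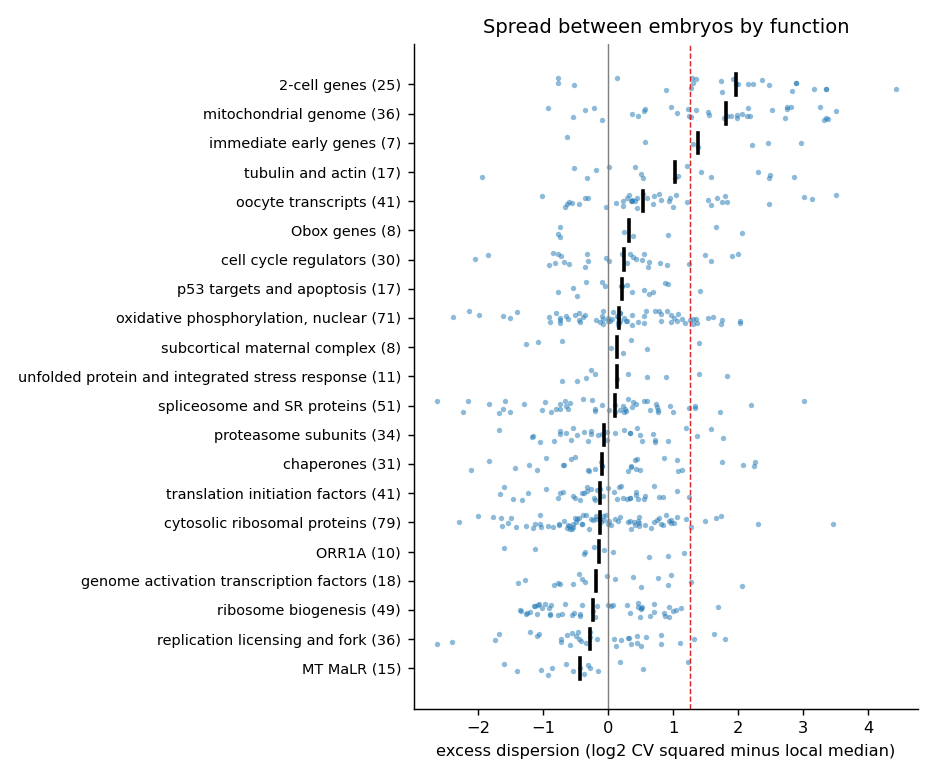
Excess dispersion (x axis, log2 of the squared CV minus the local median) of each tested member (dots) of each gene or TE list (rows, with the number tested), the median as a black bar and the top 10% of all features right of the red line. The 2-cell genes have a median of 1.96 and the ribosome biogenesis genes one of -0.23.

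The mitochondrial genome came second, with 23 of 36 features in the top 10% and a median excess of 1.81, but no member was called. Many of its members were low in embryos 8, 9 and 10. mt-Nd6, the subunit read from the light strand, had 155 to 493.4 RPM in embryos 1 to 6 and 23.4 to 43.7 RPM in embryos 8, 9 and 10, and mt-Rnr1 had 2434 to 5714 against 687 to 918 RPM. The values of neither gene overlapped between the 2 sets of embryos. These sets were drawn from shares that include both genes, so the gap describes the choice. Other members overlapped, such as mt-Co1 with 2648 to 4173 against 2036 to 2757 RPM, and mt-Rnr2 and mt-Nd1. Within embryos 1 to 6 the list had 12 of 36 in the top 10% and a median of 0.65. In the rabbit IgG embryos none of 31 was in the top 10% and the median was -0.17, and the difference between the 2 sets of embryos was not tested.

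Oocyte transcripts had 10 of 41 members in the top 10% and a median excess of 0.53, and without embryos 8, 9 and 10 it was 16 of 40 with a median of 1.19. The Tcl1 family, which encodes co-activators of the kinase Akt, led them. Tcl1b1 had 102 RPM in embryo 1, a median of 596 and 1997 in embryo 2 (excess 3.14), and Tcl1 had 408 RPM in embryo 3, a median of 1253 and 2440 in embryo 8 (2.47). Tcl1b2 and Tcl1b3 had 3.51 and 3.01, and both were highest in embryo 2. Btg4, which recruits the deadenylase that clears maternal mRNA, had 148 to 488 RPM (1.83). Of the same list, 15 of 41 in the rabbit IgG embryos were in the top 10%. Tubulin and actin genes had 6 of 17, with Actg1 at 9.18 RPM in embryo 3 and 193 in embryo 8 (2.85), and a median of 1.02 that was -0.02 in the rabbit IgG embryos. Immediate early genes, which respond fast to signals and to handling, had 5 of 7. Ier3 was called with 35.6 RPM in embryo 1 and a median of 2.06, Zfp36 had 41.0 RPM in embryo 1 and Ier2 had 40.1 RPM in embryo 9. Without embryo 1, 2 of the immediate early genes were in the top 10%.

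Housekeeping functions had medians close to that of all features over the 9 embryos. Ribosomal protein genes had 6 of 79 in the top 10%, translation initiation factors 0 of 41, ribosome biogenesis genes 1 of 49, proteasome subunits 3 of 34 and spliceosome genes 5 of 51, and the medians ran from -0.23 to 0.11. Without embryos 8, 9 and 10, 12 of the 79 ribosomal protein genes (15.2%) were in the top 10%, with a median of 0.06. Nuclear genes of oxidative phosphorylation had 10 of 71 and a median of 0.17. Rps2 had the highest excess of the 6 ribosomal protein genes in the top 10%, with 34.5 RPM in embryo 10, a median of 84.3 and 434 in embryo 1 (excess 3.46). Rps2-ps10, a pseudogene copy with which it can share reads, had the highest excess of all features that were not called, 3.96. Transcription factors of genome activation had 2 of 18 in the top 10% and a median of -0.18. Of the TE families 53 of 498, or 10.6%, were in the top 10%. The B2 families led the abundant ones with 2.88, 2.81 and 2.88 for B2_Mm1a, B2_Mm1t and B2_Mm2, while the 3 MERVL features had a median of -1.42 and the 15 MT repeats of the MaLR class one of -0.43. Under totals from nuclear protein-coding genes alone, a scaling chosen after the data were seen, 99 TE families and 31 mitochondrial features were in the top 10%, and with the size factors of TMM and DESeq2 there were 80 and 82 TE families.

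The steadiest genes of over 100 RPM had a CV under the technical floor in RPM, and how steady they were depended on the scaling. Ddx3x, an X-linked RNA helicase, had 151 RPM in the lowest embryo, a median of 179 and 200 in the highest (CV 8.50%, excess -3.06). Nub1, which lowers NEDD8 conjugates, had 179 to 244 RPM (-3.04), and Fbxo15, an F-box gene known from pluripotent cells, 429 to 549 RPM (-3.02). Pttg1ip, Wwc2, Bclaf1, Cdc42se2 and Brd2, the last a bromodomain protein, followed with -2.58 to -2.32. Under totals from nuclear protein-coding genes alone the excess was -0.74 for Ddx3x, -1.18 for Nub1, -1.19 for Fbxo15, -0.84 for Wwc2, -0.86 for Bclaf1 and -0.29 for Brd2, and with ERCC scaling it was -1.16 for Pttg1ip. The ranges in RPM span less than 1.5 times from the lowest to the highest embryo. In the rabbit IgG embryos Ddx3x, Wwc2 and Brd2 were again low, with -2.42, -2.74 and -1.93, while Pttg1ip and Bclaf1 had 0.54 and 0.01.

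The share of MERVL, most of it MT2_Mm reads, and that of the 2-cell genes rose and fell together between embryos. MT2_Mm alone took 2.10% of the reads and MERVL-int 0.681%. MERVL-int was highest in embryo 4 and had 6370 RPM in embryo 2, under its mean of 6808 RPM. The relation of MERVL-int alone with the 2-cell genes was not tested. MERVL took 2.25% of the reads in embryo 8, a median of 2.60% and 4.19% in embryo 2, and the 2-cell genes took 0.0577% in embryo 3, a median of 0.0993% and 0.212% in embryo 2. Embryo 2 was the highest in both. Over the 9 embryos Pearson's r was 0.87 (two-sided exact permutation test over 362880 pairings, p = 0.00427, adjusted p = 0.0171 over 12 relations) and Spearman's rho was 0.78 (exact p = 0.0172, adjusted p = 0.0689). Without embryos 2 and 4, the 2 farthest from the median of MERVL, r was 0.65. The relation no longer passed without embryo 2 (r = 0.66), 3 or 9, and r ran from 0.66 to 0.92 when 1 embryo was left out. In the 13 rabbit IgG embryos, centred on their batch means, r was 0.79 (permutation within batches, 100000 resamples, p = 0.00351, adjusted p = 0.0211). The share of Zscan4 genes with that of MERVL had r = 0.77 (exact permutation p = 0.0147, adjusted p = 0.0301) and rho = 0.65 (exact p = 0.0666, adjusted p = 0.0998), 0.55 without embryos 2 and 4, and 0.78 in the rabbit IgG embryos (permutation p = 0.00204, adjusted p = 0.0211). It ran from 0.52 to 0.84 with 1 embryo left out, and no longer passed without embryo 1, 2, 3, 9 or 10.

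**Figure D5:**
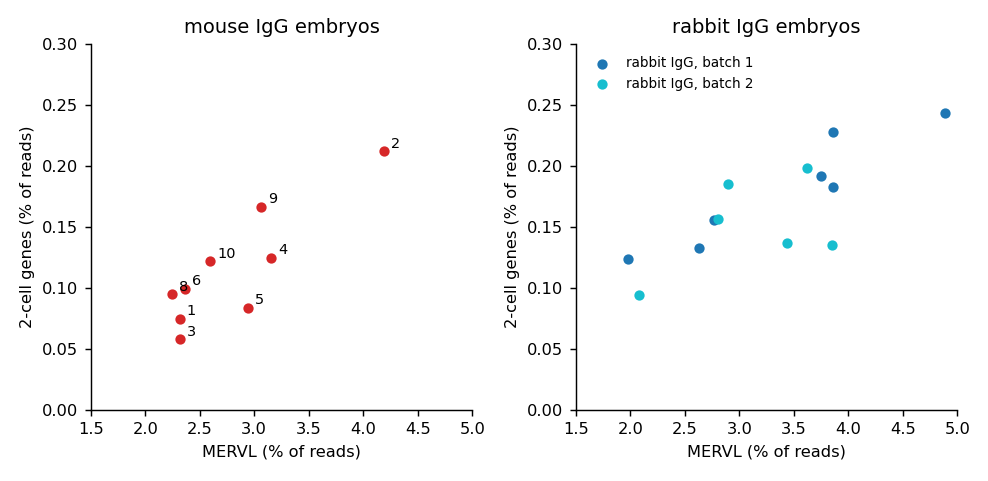
Share of reads on 2-cell genes (y axis, %) against that on MERVL (x axis, %) in the 9 mouse IgG embryos (left, numbered) and the 13 rabbit IgG embryos (right, coloured by library batch). Embryo 2 is the highest on both axes with 4.19% and 0.212%; the axes of MERVL start at 1.5%.

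Oocyte transcripts also went with the 2-cell genes. The oocyte share was 0.963% in embryo 3, 1.53% at the median and 2.54% in embryo 2, and r with the 2-cell share was 0.77 (exact permutation p = 0.0150, adjusted p = 0.0301), with rho = 0.72 (exact p = 0.0369, adjusted p = 0.0998) and 0.76 without embryos 2 and 6. With 1 embryo left out r ran from 0.55 to 0.90, the relation no longer passed without embryo 1, 2, 3, 5, 9 or 10, and it did not pass per ERCC read (r = 0.75). In the rabbit IgG embryos r was 0.50 (permutation p = 0.123, adjusted p = 0.211). The first principal component, 22.4% of the variance, ran from embryo 3 at one end to embryo 9 at the other. It went with log2 of the counted reads (r = 0.86, exact permutation p = 0.000457, adjusted p = 0.00382, and rho = 0.97, exact p = 0.000165, adjusted p = 0.00198). It also went with the mitochondrial share (r = -0.96, exact permutation p = 0.000637, adjusted p = 0.00382, and rho = -0.82, exact p = 0.0108, adjusted p = 0.0646) and with the TE share (r = -0.80, exact permutation p = 0.0117, adjusted p = 0.0301, and rho = -0.70, exact p = 0.0433, adjusted p = 0.0998). Without embryos 9 and 10, r was 0.89, -0.96 and -0.60. The relation with the TE share ran from -0.929 to -0.478 with 1 embryo left out, and no longer passed without embryo 3, 4, 8, 9 or 10 or per ERCC read (r = -0.71). The rabbit IgG embryos had a first component of their own, so its r do not check the mouse IgG axis. With the same measures these r were -0.13, 0.22 and 0.58, none of them past the threshold (permutation within batches, adjusted p = 0.638, 0.638 and 0.135). Each component was oriented to rise with the number of genes detected. Embryos 8, 9 and 10 lie together on the mouse IgG axis, so that the relations rest on few steps, and the features that carry the shares also enter the component. The component was computed anew for each embryo left out, so the r with 1 embryo left out can belong to another axis. Without embryo 3, r was 0.12 with the reads and -0.23 with the mitochondrial share. Both relations no longer passed without embryo 3 or 9. The 6 other relations did not pass an adjusted p of 0.05, among them the component with the ERCC share (r = -0.46) and with the construct level (r = 0.48), and the ribosomal protein share with the TE share (r = -0.59).

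The features nearest to each marker differed. For Zscan4c, the level (log2 of RPM + 1) most like it over the 9 embryos was that of Atad2 (r = 0.95), followed by Gm13078, Gm21818, Gm10696 and Tcl1b4 (0.93 to 0.92). Of these, Gm13078, Gm21818 and Gm10696 had 0.73 to 0.74 in the rabbit IgG embryos, and Atad2 had -0.67. For Zscan4d the nearest were Wtap, Tcstv1, Hmgn2, Gm7102 and Gna12 (0.96 to 0.94), of which Tcstv1 had 0.74 in the rabbit IgG embryos and Wtap -0.15. For Eif4e3 they were Rcan1, Tbl1xr1, Abcc10, Gnas and Stk3, and Tbl1xr1 had 0.91 in the mouse and 0.90 in the rabbit IgG embryos, while Abcc10 had 0.90 and -0.43 and Gnas 0.90 and 0.35. For Zfp352 no feature reached 0.9, and the nearest, Klhl24, had 0.83 and 0.25. For MT2_Mm the nearest were Phf20, Mier1, AC149090.1, Gm839 and Gm2016 (0.94 to 0.90), of which Gm839 and Gm2016 had 0.77 and 0.56 in the rabbit IgG embryos and Phf20 -0.06. These are descriptions, as the best of 9428 features over 9 points is high by selection. Among the markers themselves, Zscan4c and Zscan4d had r = 0.72 in the mouse and 0.85 in the rabbit IgG embryos, and Zscan4c and MT2_Mm 0.75 and 0.82. Eif4e3 had at most 0.46 with the other 3 markers in the mouse IgG embryos.

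When the 200 features of highest excess were grouped, called or not, a choice made after the data were seen, the largest set was the one that parts embryos 8, 9 and 10 from the rest. It had 38 features, among them B2_Mm1a, B2_Mm1t, B2_Mm2, B1_Mm, B1_Mus2, mt-Nd6, mt-Rnr1, mitochondrial tRNAs and L1cam. Their mean pairwise correlation was 0.68, and 0.06 in the rabbit IgG embryos. The next 2 sets had 28 features each. One held Zscan4c, Gm2016, Gm5662, Tcstv3, Usp17lb and Pramef25 together with Tcl1 and 5 Tcl1b genes, Mgst3 and Rab29. Its mean correlation was 0.70 in the mouse and 0.33 in the rabbit IgG embryos, against 0.076 for all pairs there. This set was highest in embryo 2 and next in embryo 9, and lowest in embryos 3 and 1. The other, highest in embryo 1 and with ERVB4_2-LTR_MM, Bhmt and H2-Q6 among its members, had 0.66 and 0.18. A set of 17 with Hand1, Actb, Cd9, Igfbp2 and Aurkc, highest in embryos 1 and 8, had 0.64 and 0.34. Another set of 17, highest in embryos 8 and 9, had 0.63 and 0.08. A set of 11, highest in embryo 1, had 0.69 and 0.09, and a set of 9, highest in embryos 10 and 9, had 0.76 and -0.05.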

How the data were processed

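Single late 2-cell embryos were measured by Smart-seq+5′, and the authors kept the 5′ reads for the counts used here. The deposited values are estimated counts per gene and per TE family or subfamily (TEtranscripts, whole numbers) with ERCC spike-ins and the injected construct, not normalized. Of 1385 TE rows, 42 were subfamilies and were added to 6 families, B2_Mm1a, B3A, MT2_Mm, MT2C_Mm, ORR1A0 and ORR1A1. The submitters' processing notes name STAR 2.7.11a and GRCm38. How strand and multimapping reads were treated was stated in none of the sources read. The tables per single insertion were not used here, and 0 columns belonged to another series. Symbols came from gencode M21 and promoters from RefSeq GRCm38.p6, where 4 of 7 genes looked up had an entry.

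Counts were divided by the reads on genes and TE families (RPM), and ERCC by ERCC reads. Embryos under 500000 reads were dropped. A gamma fit of squared CV on 59 ERCC gave the technical part, and features with a mean of at least 10 reads (4.76 RPM) were tested by chi-square against it plus a biological CV of 0.5, with Benjamini-Hochberg adjustment at 0.05. The test assumes near-normal scatter. On simulated data with 200 changed features it recovered 17.5%, 63% and 85.5% at a biological squared CV of 1, 2 and 4 (9372, 9416 and 9414 features tested), with 0 false calls. The unchanged features were given less biological spread than the null allows, so the 0 false calls were nearly fixed in advance. Changed features were drawn from means of at least 30 reads. Recovery at 10 to 30 reads, where 3561 tested features lay, was not measured. The 12 relations used exact permutation. Correlated groups were average-linkage clusters at r = 0.5 on log2(RPM + 1). Rabbit IgG values were centred within library batches.

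Named were the markers, the 15 genes and 10 TE families of highest share, the 15 genes and 5 TE families of highest and the 8 protein-coding genes of lowest excess dispersion (at least 100 RPM), the 5 nearest features of each marker and MT2_Mm, and list members. Sex-linked genes, Rps2-ps10 and members of the 200-feature groups were named after their values were seen. The members and lists were chosen with earlier results of these data known. Nothing ties an embryo to its litter, so p-values measure the spread between these embryos, part of which may be technical. Reads carry no molecular identifiers here, so limits from a count of 0 (3 reads) cover counting error only. Alternatives were ERCC, TMM (edgeR 4.0.16) and DESeq2 1.42.0 size factors, scran 1.30.0, other filters, thinning, other totals and leaving out embryos. The tests ran in scipy 1.17.1 with pandas 2.3.3 and numpy 2.4.6 under Python 3.11.15, the scaling in R 4.3.3, and plots in matplotlib 3.10.9.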

Additional observations from a re-analysis of the deposited data

Results flagged for a closer look

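In 27 of 96 sets of 9 values, 1 embryo stood farther from its nearest neighbour than Dixon's 95% limit allows. Chance does so in about 1 in 20 sets, and the sets are not independent, since many were chosen for their spread. No cause was tested.

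Embryo 1 was the high one for C730034F03Rik (92.6 RPM), Bhmt (94.4), Klhl10 (66.8), Tdh (116), Hand1 (44.5), ERVB4_2-LTR_MM (321), RLTR45-int (251) and RLTR13B1 (68.6), and for cumulus and granulosa cell markers (0.00748% of reads) and blood cell markers (0.0041%). Embryo 2 was the high one for Zscan4c (36.3 RPM, the next at 12.3), Gm2016 (162), Gm5662 (219.8), MT2_Mm (35349), MT2C_Mm (20132) and MT2B1 (6831), and for MERVL as a whole (4.19% of reads). MERVL-int was instead highest in embryo 4 (8923 RPM), as were Fam173b (111) and Myom2 (192).

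Embryo 3 was high for Fthl17c (40.9 RPM), Carf (119) and Gm13657 (44.2), and had 0% of reads on Y-linked genes. SYNREP_MM was high in embryo 6 (34.99 RPM). Embryo 8 was high in ribosome biogenesis genes (0.985% of reads, the next at 0.780%) and in spliceosome genes (0.709%, the next at 0.559%).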

How the results depend on the processing

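No paired analysis was possible because no groups were compared. Totals without rRNA loci or from nuclear coding genes, the set without embryos 8, 9 and 10, and the groups of 200 features were chosen after seeing the data. Against 55 variable features, 10 were called at a mean of at least 50 reads, 112 with no filter, 30 after thinning to the shallowest embryo, 35 without embryos 8, 9 and 10, 264 and 14 with a minimum biological squared CV of 0.1 and 0.5, and 2990 by scran, which tests against technical noise alone. Of the 55, 54 were among the 112, 31 among the 35, and all among the 264 and the 2990. Leaving out 1 embryo gave 34 (without embryo 1) to 62. ERCC, TMM and DESeq2 scaling, other totals and adding embryo 7 gave 52 to 71. The excess of RLTR45-int ran from -0.36 (without embryo 1, reversed) to 4.12 with 1 embryo left out, and from 2.97 to 4.35 under the other alternatives. Per ERCC read, the first component with the TE share (r = -0.71) and oocyte with 2-cell genes (r = 0.75) no longer passed.

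Leaving out 1 embryo, r ran from 0.12 to 0.86 for the component with log2 reads and from -0.97 to -0.23 with the mitochondrial share (both lost without embryo 3 or 9), from -0.929 to -0.478 with the TE share (lost without 3, 4, 8, 9 or 10) and from -0.70 to 0.82 with 2-cell genes (past the threshold without 8). It ran from 0.55 to 0.90 for oocyte with 2-cell genes (lost without 1, 2, 3, 5, 9 or 10), from 0.66 to 0.92 for MERVL with 2-cell genes (lost without 2, 3 or 9) and from 0.52 to 0.84 for MERVL with Zscan4 genes (lost without 1, 2, 3, 9 or 10). The first component was computed anew for each embryo left out, so its relations can concern another axis. The cause of these changes was not tested. The TE share stayed within 1 SD in all 14 alternatives. With 9 embryos, the simulation recovered few features of a biological squared CV of 1, so features not called may still vary.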
